A study of Mus musculus with 15 samples.

Results

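The genes described here act at the G1/S transition and in DNA replication. They were 43 genes taken by symbol from a list of replication factors and their regulators, of 20723 genes in the 4 deposited tables, and 43 of 43 were listed in every table and passed the filter on low values (3 or more libraries at 10 or higher). RNA was sequenced from total bone marrow of leukemic C57BL/6 mice, the quaternary recipients of serially transplanted leukemia. In all groups the leukemia had been started from lineage-depleted marrow cells that carried MLL-AF9, a fusion oncogene of acute leukemia, on a retrovirus with a GFP reporter. GFP-positive cells had been sorted for the first transplant (7 and 3 Gy of irradiation), and later recipients had received 3 Gy. In group 36S (GFI1 KI/KI) human GFI1 stood in place of the mouse gene. Group 36N (36N/36N) had the 36N variant instead, and in group KD (KD/KD) expression was 10 to 20%. GFI1 is a zinc finger repressor of transcription in blood cells. Untreated groups were 36S (libraries 1 to 3), 36N (libraries 4 to 6) and KD (libraries 7 to 9), and 36S and 36N cells were also sequenced after 20 h with the alkylating drug temozolomide (TMZ, 50 µg/ml), which gave 15 libraries in 5 groups of 3. No sort of leukemic cells before RNA extraction is given in the sources used here, so host marrow cells can be part of each sample. Because the labels do not tell whether mice of the same group received cells of the same primary leukemia, p-values reflect only sample-to-sample spread, which may be technical. The number that follows MLL_AF9 in the sample titles runs from 1 to 3 in 36S and is 1 for every 36N and KD library. Its meaning is not given, so the replicates of 36S may differ in kind from those of the other groups.

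Replication starts in stages. In G1 the origin recognition complex, CDC6 and CDT1 load the MCM2-7 helicase onto DNA, and in S phase CDC45 and the GINS complex join it to form the active helicase, which MCM10 helps to activate. Polymerase alpha and its primase then lay down primers, the RFC complex loads the ring-shaped clamp PCNA, polymerases delta and epsilon copy the strands, and FEN1 and DNA ligase 1 join the Okazaki fragments. Cyclin E with its kinase and the E2F transcription factors drive entry into S phase, and E2F factors act on the promoters of many replication genes. In marrow these genes are used by dividing progenitors and blasts and are low in mature granulocytes and monocytes. In bulk samples, fewer cells of a type and less RNA per cell cannot be told apart.

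The promoters of these genes often held the letters that E2F factors bind. The windows ran from 250 bases before to 50 bases after each annotated start (RefSeq, GRCm38.p6), 35 of the 43 genes were found in that table, and the letters searched on both strands were TTTCCCGC, TTTCGCGC, TTTGCCGC and TTTGGCGC, with overlapping matches counted separately. A match was present for 16 of the 35 genes (45.7%) and for 2.60% of 27025 genes in the table. A match describes letters and is not a measured binding site. The stretches below are printed in the direction of the gene, with the match in capitals, because they show where the searched letters lie in genes of different roles.
Mcm5: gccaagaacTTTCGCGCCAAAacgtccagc
Mcm6: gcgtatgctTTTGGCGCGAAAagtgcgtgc
Orc1: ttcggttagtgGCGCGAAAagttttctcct
Cdc6: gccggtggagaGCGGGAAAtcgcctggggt
Gins3: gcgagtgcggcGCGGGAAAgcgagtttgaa
Pola1: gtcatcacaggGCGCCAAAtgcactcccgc
The Mcm5 stretch lies at chr8:75109347-75109376 on the plus strand, and its match begins 153 bases before the start. The Mcm6 stretch is at chr1:128359795-128359824 on the minus strand (110 bases before the start). In both helicase genes the capitals are 2 overlapping matches on opposite strands. The Orc1 stretch is at chr4:108579416-108579445 (plus strand, 27 bases before the start), that of Cdc6 at chr11:98908002-98908031 (plus, 138 bases) and that of Gins3 at chr8:95633507-95633536 (plus, 41 bases). The Pola1 stretch is at chrX:93632275-93632304 on the minus strand (138 bases before the start). All these distances are to the RefSeq starts. The gene coordinates printed below are those of GENCODE M21, which can start elsewhere. There Cdc6 begins at 98907801, Gins3 at 95633453 and Orc1 at 108579423, so the matches of these genes lie inside them.

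The deposited values are normalized counts. Column totals were 11265945 to 13032511 in the untreated libraries, 15685301 to 18287681 in the joint table of treated and untreated 36N, and 22254152 to 24264818 in the table of TMZ libraries, and read depth is unknown. Values below are normalized counts per library or mean ± SD over 3 libraries. Fold changes are differences of log2(value + 1), which understates the change of low genes, with the tested group first, and adjusted p-values are from limma-trend with Benjamini-Hochberg adjustment over all genes of the comparison, with calls at 0.05. Levels are compared between samples and not between genes, because the values are not per length. The counting was not stated to use strand, and 18 of the 43 genes overlap an annotated gene on the opposite strand (mm10, GENCODE M21), among them Cdc45 (with Ufd1), Tk1 (with Afmid) and Prim2 (with Gm17813). Pcna and Tyms have named pseudogenes that could share reads. The labelled cell type was checked with 6 leukemia and progenitor markers, whose summed level was 15980 to 18490 in untreated 36S, 12010 to 18000 in 36N and 16820 to 19830 in KD. Single markers differed more than these sums. Kit stood at 1217, 1183 and 892 in 36S, 513, 355 and 161 in 36N, and 524, 293 and 332 in KD. Flt3 stood at 209, 482 and 777, at 1753, 2272 and 1106, and at 727, 504 and 610. Against 36S, 1 of the 6 was called lower and 1 higher in 36N (2.01% and 2.55% of all genes). The same counts were found in KD (4.86% and 6.61% of all genes). Markers of other myeloid stages were also present: 9 markers of the neutrophil lineage, of which the primary granule genes Mpo, Elane and Prtn3 mark immature stages, summed to 62390 to 192400 in 36S, 43860 to 50520 in 36N and 29510 to 39640 in KD, and 9 monocyte and macrophage markers to 43580 to 49060, 52270 to 58140 and 88840 to 142800. Elane and Mpo were lower in 36N than in 36S (-1.25 and -1.48, limma-trend adjusted p = 0.0087 and 0.036), and the other 7 neutrophil markers did not pass. Of all 9, 7 were below 0, with a median of -0.38. The late markers S100a8, S100a9 and Camp were nearest to 0 (0.00, -0.16 and 0.07). In KD, Elane, Mpo, Camp and Ltf were lower than in 36S, 6 of the 9 monocyte markers were higher, 4 of 7 T and NK cell markers tested were higher (summed level of the list 198.7 to 755.1 against 61.39 to 175.8), and Igkc and Jchain were lower (-2.65 each).

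Within every group the replication genes tended to be high or low in the same library. Library 1 was the highest of 36S for 35 of the 43 genes and library 3 the lowest for 34. The same libraries were the highest and the lowest of 36S in neutrophil markers, with S100a8 at 21822, 2837 and 1365 and Mpo at 77508, 51635 and 26502 in libraries 1 to 3. Library 4 was the highest of 36N for 31 genes, and in KD library 7 was the highest for 35 and library 8 the lowest for 31. KD library 7 held less of the T cell gene Cd3e than the other KD libraries (49.8, 168 and 242). The same held for Cd3g, Trac (23.0, 84.4 and 132), Gzma (10.2, 54.0 and 85.9), Gzmb and Nkg7 of the same marker list. KD library 7 was not the lowest of KD for Cd3d (32.3, 27.8 and 34.9) or Klrb1c (16.5, 7.72 and 15.7) of that list. Relative to the mean of 36S, the median over the 43 genes was 0.15, 0.01 and -0.18 on the log2 scale in 36S libraries 1 to 3. It was -0.09, -0.24 and -0.29 in 36N libraries 4 to 6 and -0.14, -0.59 and -0.39 in KD libraries 7 to 9. KD library 7 and 36N library 4 thus stood within the range of the 36S libraries by this median, and the other KD and 36N libraries stood below it. The median over all genes stayed between -0.01 and 0.01 in each of these 9 libraries.

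**Figure D1:**
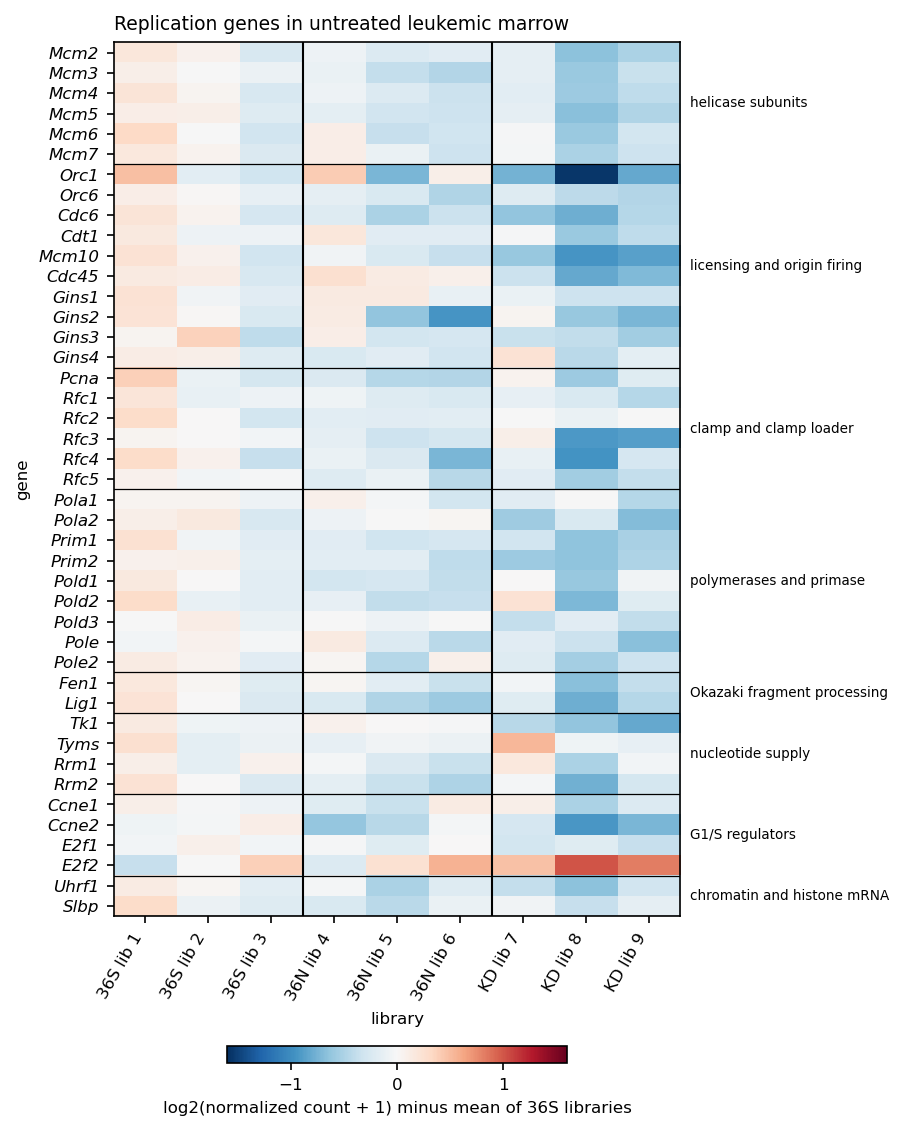
Heat map of the 43 genes (rows, by role) in the 9 untreated libraries (columns), coloured by log2(normalized count + 1) minus the mean of the 36S libraries. KD libraries 8 and 9 are blue for 42 of 43 genes each, E2f2 being red in both, while KD library 7 is nearer to 36S, with 33 of 43 genes below its mean.

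In untreated marrow, KD stood below 36S for 41 of the 43 genes, with E2f2 and Tyms above it, and 36N stood below 36S for 39 of the 43. Over all genes tested, 50.9% and 51.7% stood below 36S. The median log2 fold change over the 43 genes was -0.36 for KD and -0.21 for 36N, against -0.01 over all genes in either comparison. Both comparisons use the same 3 libraries of 36S, so their values are given side by side and are not independent. For KD against 36S, 6 of the 43 genes passed the test where 11.5% of all genes did. These were 5 lower genes (11.6% of the 43, against 4.86% of all genes called lower) and 1 higher gene (6.61% of all genes called higher). An unadjusted p under 0.05 was held by 20 of the 43, 19 lower and 1 higher, where 26.5% of all genes had one. For 36N against 36S, 0 of the 43 passed the limma-trend test where 4.56% of all genes did (2.55% higher and 2.01% lower), and 6 had an unadjusted p under 0.05, all lower, where 20.4% of all genes had one. For KD against 36N, 2 of the 43 passed, both lower, where 3.24% of all genes passed (2.03% higher and 1.21% lower), and the median over the 43 was -0.17. There 7 of the 43 had an unadjusted p under 0.05, 6 lower and 1 higher, against 19% of all genes.

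The MCM2-7 subunits form the ring of the replicative helicase. The 6 genes were on average lower in KD and in 36N than in 36S, with log2 fold changes of -0.29 to -0.44 and of -0.11 to -0.32. The limma-trend test called 0 of 6 in either comparison, where 11.5% and 4.56% of all genes passed. An unadjusted p under 0.05 was held by 4 and 1 of them, against 26.5% and 20.4% of all genes. Mcm2 stood at 2692, 2504 and 1995 in 36S, 2245, 2036 and 2093 in 36N, and 2148, 1510 and 1675 in KD. KD library 7 and all 36N libraries lay inside the range of 36S, and KD libraries 8 and 9 lay below it (KD against 36S -0.44, SE 0.17, adjusted p = 0.139). Mcm5, whose promoter stretch is printed above, stood at 2917, 2895 and 2353 in 36S, 2440, 2195 and 2144 in 36N, and 2459, 1711 and 1940 in KD. Its difference was -0.43 in KD (adjusted p = 0.13) and -0.26 in 36N (adjusted p = 0.25), and both groups overlapped 36S. Mcm3 was the subunit whose 3 values did not overlap 36S in either group. It stood at 3795, 3541 and 3322 in 36S, 3303, 2713 and 2571 in 36N, and 3219, 2355 and 2782 in KD (log2 fold changes -0.32 and -0.36, adjusted p = 0.185 and 0.153).

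Genes that license origins and fire them held 3 of the 6 calls between KD and 36S. Mcm10 (chromosome 2, 4989714 to 5012791, minus strand), whose product helps to activate the helicase, stood at 788, 702 and 541 in 36S, 643, 564 and 519.99 in 36N, and 438, 349 and 366 in KD. The KD values all lay below those of the other groups. Mcm10 was 1.75-fold lower in KD than in 36S (384 ± 47.5 against 677 ± 125, log2 fold change -0.81, SE 0.17, limma-trend adjusted p = 0.018) and its difference from 36N was -0.58 (adjusted p = 0.081). Cdc6 (chromosome 11, 98907801 to 98923940), which loads the helicase in G1, stood at 724, 656 and 522 in 36S, 544, 440.4 and 493 in 36N, and 405, 365 and 457 in KD. Its KD values lay below 36S and overlapped 36N (KD against 36S -0.62, SE 0.17, limma-trend adjusted p = 0.040). Cdc45 (chromosome 16, 18780447 to 18811987, minus strand), a part of the active helicase, stood at 857, 847 and 650.1 in 36S, 932, 852 and 822 in 36N, and 615, 442 and 479 in KD. KD was the low group and 36N was on average above 36S. Cdc45 fell against both, by 0.62 against 36S (SE 0.17, limma-trend adjusted p = 0.049) and by 0.77 against 36N (512 ± 91.2 against 869 ± 56.5, SE 0.16, limma-trend adjusted p = 0.028).

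Orc1, the ATPase subunit of the origin recognition complex, had the largest difference of the 43 genes between KD and 36S without passing the test. It stood at 165, 105 and 94.7 in 36S, 156, 70.6 and 127 in 36N, and 69.4, 39.5 and 66.6 in KD. All KD values lay below all others, but the spread within 36S and 36N was wide (KD against 36S -1.04, SE 0.31, adjusted p = 0.059). Cdt1, the other loading factor of the helicase, stood at 1460.04, 1239 and 1239.6 in 36S, 1489.9, 1154 and 1154 in 36N, and 1294, 867 and 984 in KD, and these groups overlapped (KD against 36S -0.34, adjusted p = 0.23). The GINS subunits and Orc6 had differences of -0.12 to -0.44 in KD and of -0.48 to 0.06 in 36N. The limma-trend test called 0 of these 5 genes in either comparison, where 11.5% and 4.56% of all genes passed. An unadjusted p under 0.05 was held by 1 and 0 of them, against 26.5% and 20.4% of all genes.

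The clamp, its loader and the polymerases held 1 call. Prim2 (chromosome 1, 33453810 to 33669795, minus strand), the large subunit of the primase, stood at 717, 724 and 612 in 36S, 608, 606 and 515 in 36N, and 455, 437 and 484 in KD. The 3 groups did not overlap, with KD lowest. Prim2 fell by 0.57 in KD against 36S (459 ± 24 against 684 ± 63.0, SE 0.14, limma-trend adjusted p = 0.026), and its difference from 36N was -0.33 (adjusted p = 0.25). Pola1, the catalytic subunit of polymerase alpha, which works with the primase, stood at 846, 845 and 774 in 36S, 871, 805 and 670.4 in 36N, and 725, 817 and 600.3 in KD. Its groups overlapped and its differences were -0.08 in 36N and -0.21 in KD (adjusted p = 0.765 and 0.406). Pcna, the clamp itself, stood at 3839.9, 2733 and 2421 in 36S, 2514, 2134 and 2126 in 36N, and 3068, 1957 and 2563 in KD. Its 36S mean was drawn up by library 1, and neither difference passed (-0.39 in 36N and -0.24 in KD, adjusted p = 0.24 and 0.52). The loader subunits Rfc1 to Rfc5 ranged from -0.17 to -0.36 in 36N and from -0.04 to -0.57 in KD. Rfc2 was nearly level between KD and 36S (939 ± 34.6 against 980 ± 199, 95% confidence interval of the log2 fold change -0.40 to 0.32).

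Lig1, Pold1 and Mcm3 had the lowest p-values between 36N and 36S and did not pass. Lig1, the ligase that seals Okazaki fragments, stood at 1949.9, 1686 and 1425 in 36S, 1417, 1199 and 1116 in 36N, and 1467, 976 and 1222 in KD. The 36N values lay just under those of 36S (-0.43, SE 0.14, limma-trend adjusted p = 0.132), and KD overlapped 36S (-0.47, adjusted p = 0.125). Pold1, the catalytic subunit of polymerase delta, stood at 1177, 1066 and 945 in 36S, 862, 876 and 805 in 36N, and 1064, 695 and 1020.3 in KD. Its 36N values were below 36S (-0.32, SE 0.12, limma-trend adjusted p = 0.17) while KD overlapped 36S. Fen1, the flap nuclease of Okazaki fragments, stood at 877, 796 and 680.1 in 36S, 795, 692 and 612 in 36N, and 758, 490.5 and 599 in KD, with overlap in both comparisons (-0.17 and -0.36, adjusted p = 0.54 and 0.24). In all, 7 of the 43 genes had 36N values wholly below 36S and 0 wholly above, where 13.8% and 13.1% of all genes did. In KD, 17 of the 43 lay wholly below 36S and 1 wholly above, against 15.8% and 15.7% of all genes.

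**Figure D2:**
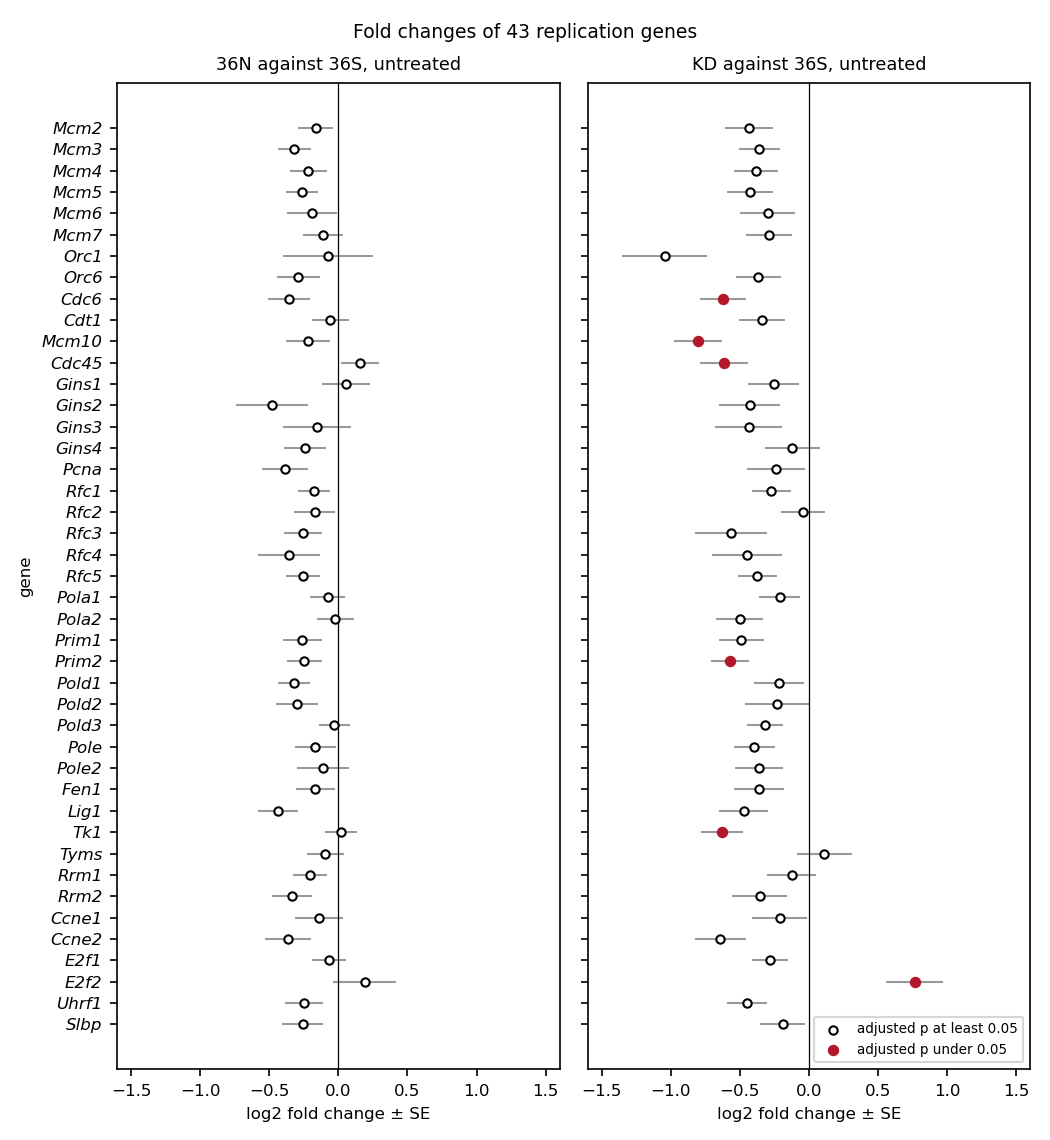
Log2 fold change with its standard error (lines) for the 43 genes in 36N against 36S (left) and KD against 36S (right), untreated, both against the same 3 libraries of 36S. Red points passed limma-trend at an adjusted p of 0.05: 0 genes on the left and 6 on the right, with most points left of 0 in both panels.

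Of the genes of nucleotide supply, Tk1 passed and the others did not. Tk1 (chromosome 11, 117815526 to 117826092, minus strand), the thymidine kinase of dividing cells, stood at 647, 555 and 554 in 36S, 611, 586 and 578 in 36N, and 430.04, 377 and 330.1 in KD. The KD values lay below both other groups, which overlapped each other. Tk1 fell by 0.63 against 36S (379 ± 50.0 against 585 ± 53.5, SE 0.15, limma-trend adjusted p = 0.028) and by 0.65 against 36N (592 ± 16.9, SE 0.15, limma-trend adjusted p = 0.047). Tyms, the thymidylate synthase, stood at 1048, 785 and 819.5 in 36S, 803, 841 and 821 in 36N, and 1266, 838 and 799.6 in KD. Its highest value was in KD library 7, and its difference did not pass (0.11, 95% confidence interval -0.33 to 0.55). Rrm1 and Rrm2 encode the subunits of ribonucleotide reductase. Rrm1 stood at 2561, 2144 and 2517 in 36S, 2349, 2036 and 1873 in 36N, and 2690.1, 1695 and 2336 in KD. Rrm2 stood at 1225, 1049 and 896 in 36S, 942, 817 and 744 in 36N, and 1026, 615 and 866 in KD. Both overlapped in each comparison (Rrm2 -0.34 in 36N and -0.36 in KD, adjusted p = 0.23 and 0.29).

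Among the regulators of the G1/S transition, E2f2 moved against the rest. E2f2 (chromosome 4, 136172394 to 136196057), an activating E2F factor, stood at 647, 829 and 1089 in 36S, 719.6, 986 and 1228 in 36N, and 1153, 1680.4 and 1477 in KD. The lowest 36S value was in library 1 and the lowest KD value in library 7, the libraries that were highest for most of the other genes. E2f2 rose 1.70-fold in KD against 36S (1437 ± 266 against 855 ± 222, log2 fold change 0.76, SE 0.21, limma-trend adjusted p = 0.044), and its difference from 36N was 0.57 (adjusted p = 0.18) with overlapping values. E2f1, its paralog, stood at 506, 549.6 and 507 in 36S, 513, 454 and 525 in 36N, and 423, 456 and 404 in KD, where the KD values lay below 36S (-0.28, adjusted p = 0.21). Ccne2, a cyclin of S phase entry, stood at 482, 497 and 544 in 36S, 329, 372 and 498 in 36N, and 421, 266 and 305 in KD. It was lower in each KD library than in 36S and narrowly missed the threshold (-0.64, SE 0.18, limma-trend adjusted p = 0.053). Ccne1 stood at 206, 192 and 183 in 36S, 169, 151 and 211 in 36N, and 206, 135 and 166 in KD, with overlap throughout (-0.14 and -0.21, adjusted p = 0.69 and 0.55). Slbp, which binds the stem loop of histone mRNA, stood at 1677, 1283 and 1181 in 36S, 1153, 1015 and 1266 in 36N, and 1310.01, 1054 and 1234 in KD, and did not differ beyond this spread (-0.26 and -0.19, adjusted p = 0.36 and 0.50). Uhrf1, which brings DNA methyltransferase to new DNA, was at 2049 ± 253 in KD against 2798 ± 291 in 36S (-0.45, adjusted p = 0.077).

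**Figure D3:**
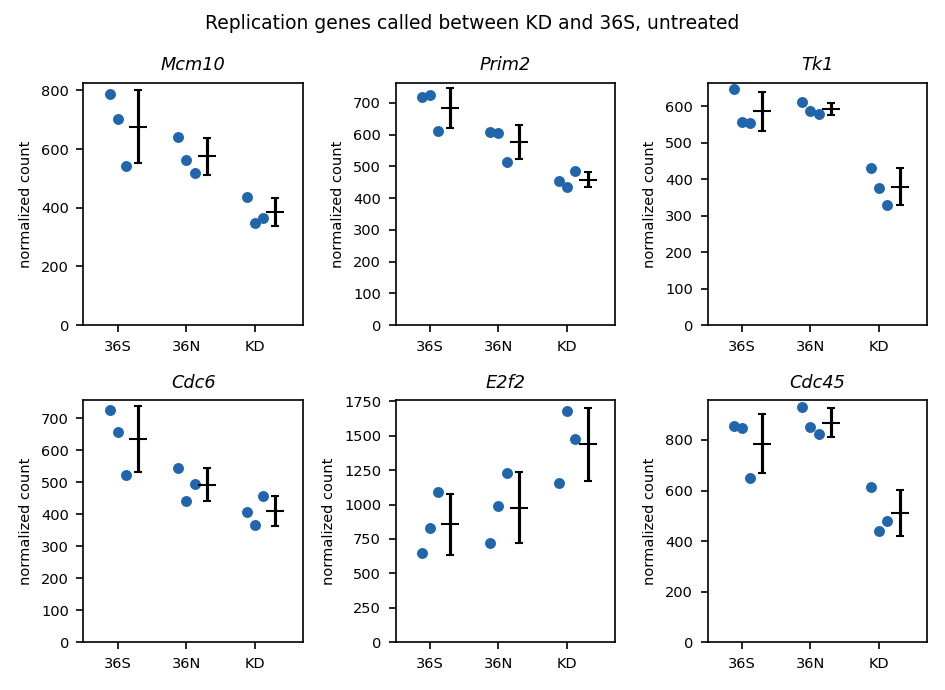
Normalized counts per library (points) with mean ± SD (bars) for the 6 genes that passed limma-trend between untreated KD and 36S, with 36N beside them. KD lies below 36S for Mcm10, Prim2, Tk1, Cdc6 and Cdc45 and above it for E2f2, and it lies below 36N without overlap for Mcm10, Prim2, Tk1 and Cdc45.

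The calls between KD and 36S depended on single libraries. Leaving out 36S library 1, 36S library 2 or KD library 9 gave 0 calls, KD library 8 gave 4, 36S library 3 gave 5 and KD library 7 gave 6. The shares of all genes called in these runs are not given here. The counts therefore cannot be read as particular to the replication genes. With libraries brought to equal totals, which moved the median of all genes from -0.01 to -0.13, 14 of the 43 passed, all lower, where 11.7% of all genes passed and 7.13% were called lower. E2f2 then did not pass (0.64, adjusted p = 0.12), and the share of higher genes among all calls went from 57.6% to 39.3%. For KD against 36N, leaving out 36N library 4, 5 or 6 or KD library 9 gave 0 calls, KD library 7 gave 1 and KD library 8 gave 3. The same limit holds for these counts. With equal totals the share of higher genes among all calls went from 62.6% to 49.6%. The part that the differences in progenitor, neutrophil, monocyte, T and NK cell and plasma cell markers have in these results was not tested.

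Other genes of the replication and G1/S pathways, 86 in 6 lists, gave a wider view. For KD against 36S, 15 of the 85 tested were lower and 5 higher (17.6% and 5.88%, against 4.86% and 6.61% of all genes, median -0.33). Mybl2, a transcription factor of cycling cells, stood at 853, 987 and 798 in 36S against 454, 377 and 415 in KD (log2 fold change -1.08, SE 0.14, limma-trend adjusted p = 0.0018). Ticrr, which is needed for origin firing, fell by 0.76 (adjusted p = 0.0074). Cdk6, a kinase of G1 and a driver of MLL-rearranged leukemia, stood at 20885, 24108 and 26312 in 36S against 13456, 14139 and 12059 in KD (-0.84, adjusted p = 0.013). None of the KD values of these genes overlapped 36S. The list of G1/S brakes moved both ways: 4 of its 16 tested genes rose and 3 fell (25% and 18.8%, against 6.61% and 4.86% of all genes). Cdkn2c, an inhibitor of CDK4 and CDK6, stood at 874, 496 and 598 in 36S against 2512, 1561 and 1744 in KD (1.57, SE 0.23, limma-trend adjusted p = 0.0032). The anti-proliferative factors Btg1 and Btg2 rose (log2 fold changes 1.14 and 0.93, limma-trend adjusted p = 0.0014 and 0.0048). The inhibitor Cdkn1c fell from 52.9 ± 12.7 to 9.53 ± 3.14 (-2.38, limma-trend adjusted p = 0.0053) and Cdkn1a, which encodes p21, from 554 ± 40.9 to 346 ± 34.7 (-0.68, adjusted p = 0.016). Ccnd2 and Gmnn did not pass (0.93 and -0.33, adjusted p = 0.20 and 0.41).

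For 36N against 36S, 2 of the 85 other genes rose and 2 fell (2.35% each, against 2.55% and 2.01% of all genes, median -0.19). Cdkn2c rose from 656 ± 196 to 1478 ± 105 (log2 fold change 1.21, limma-trend adjusted p = 0.0086) and Btg1 from 976 ± 117 to 1442 ± 39.5 (0.57, adjusted p = 0.027). The histone chaperone Asf1b fell from 950 ± 44.7 to 564 ± 52.3 (-0.75, limma-trend adjusted p = 0.0084) and the repressor E2f8 from 3982 ± 235 to 2908 ± 248 (-0.46, adjusted p = 0.047). Ccnd2, Cdk6, Gmnn and Cdkn1a did not pass (1.51, -0.77, -0.33 and -0.12, adjusted p = 0.0915, 0.123, 0.353 and 0.603). Between KD and 36N, Btg1 rose (0.57, limma-trend adjusted p = 0.049) and Ccnd1, Mybl2 and Chaf1a fell (-1.33, -0.65 and -0.57, adjusted p = 0.0094, 0.040 and 0.048). Cdkn1a, Ccnd2, Cdk6 and Gmnn did not pass there (-0.56, -0.58, -0.07 and 0.00, adjusted p = 0.079, 0.29, 0.901 and 1). Of 24 genes of G2/M and mitosis, 24 were below 36S in 36N (median -0.37) and 23 in KD (median -0.28), and 17 were higher in KD than in 36N (median 0.12), while 33 of the 43 replication genes were lower in KD than in 36N. For these G2/M genes the limma-trend test gave 0 calls in each of the 3 comparisons, where 4.56%, 11.5% and 3.24% of all genes passed. An unadjusted p under 0.05 was held by 12, 8 and 1 of them, against 20.4%, 26.5% and 19% of all genes.

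TMZ and untreated libraries of 36N were compared within the table that holds both. A dose and a time are labelled for the TMZ libraries only, and whether untreated cells were held alike is not stated here. Drug, handling and cell content therefore cannot be told apart in this comparison. The replication genes split: 14 of the 43 rose with TMZ and 6 fell, where 69.7% of all genes passed (36.3% higher and 33.5% lower), so 46.5% of the 43 passed. The same 20 genes had an unadjusted p under 0.05, against 72.3% of all genes, and 15 of the 43 were below 0, against 48.2%. The groups did not overlap for 23 of the 43, 17 higher and 6 lower, against 74.5% of all genes (38.7% and 35.8%). The median over the 43 was 0.17 and over all genes 0.06. The same 36N libraries also stand in the untreated table and in the TMZ table, and between tables their values differ by a factor that depends on the gene. Over 12240 genes the log2 ratio of a library's values in 2 tables had an SD over genes of 0.34, while its SD between the 3 libraries of a gene was 0.003 on average. The difference between TMZ and untreated was therefore also taken from the 2 other tables, centred on the median of all genes and with no test. Before centring, this median was 1.03 in 36N and 0.99 in 36S. It was set to the median of the joint table over the same 12240 genes (0.03). A sign from the other tables is thus relative to the median gene and not to the printed values. The cause of the factors was not tested. The 2 versions differed in sign for 9 of the 43 genes (15.3% of all genes) and by over 1 log2 unit for 4 of the 43 (9.89% of all genes).

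Rfc2 of the clamp loader and Pold1 of polymerase delta rose with the lowest p-values among the genes that were high in both versions. Rfc2 (chromosome 5, 134581366 to 134601805), a small subunit of the loader, stood at 1019.7, 1004 and 1021 untreated and 3692, 4405 and 5284 with TMZ. No TMZ value came near the untreated ones. It rose 4.34-fold (4460 ± 798 against 1015 ± 9.13, log2 fold change 2.12, SE 0.14, limma-trend adjusted p = 1.3e-05), and the other tables gave 1.71. Pold1 stood at 968, 983 and 909 untreated and 2492, 2848 and 2668 with TMZ (1.48, SE 0.11, limma-trend adjusted p = 1.7e-05), and its difference was 1.10 from the other tables. Orc6, a subunit of the origin recognition complex, stood at 386, 359.6 and 307 untreated and 632, 762 and 640.5 with TMZ. It was higher with TMZ in each library (0.95, SE 0.16, limma-trend adjusted p = 0.0010, and 1.14 from the other tables). Rrm2 stood at 1507, 1308 and 1197 untreated and 2438, 2523 and 1706 with TMZ, and rose by 0.72 (adjusted p = 0.0077, 1.13 from the other tables). Rrm1 stood at 2971, 2575 and 2381 untreated and 4417, 4711 and 4021 with TMZ, and rose by 0.73 (adjusted p = 0.00125, 0.53 from the other tables). Both subunits of ribonucleotide reductase were thus higher with TMZ in either version.

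Rfc1, Prim2 and Cdc45 fell. Rfc1, the large subunit of the loader, stood at 3531, 3207 and 3151 untreated and 1288, 1484 and 1028 with TMZ, which is the opposite direction to Rfc2 (-1.39, SE 0.15, limma-trend adjusted p = 0.00012, and -0.39 from the other tables). Prim2 stood at 938, 935 and 799 untreated and 452, 444 and 379.9 with TMZ. It fell by 1.06 (SE 0.14, limma-trend adjusted p = 0.00033, -0.80 from the other tables). Cdc45 stood at 1409, 1288 and 1250.2 untreated and 727, 861 and 606 with TMZ, and fell by 0.86 (adjusted p = 0.00156, -0.60 from the other tables). In each of these 3 genes all TMZ values lay below all untreated values. In 36S the same difference can be taken only between tables and has no test. There Rfc2, Pold1, Orc6, Rrm2 and Rrm1 stood higher with TMZ by 1.62, 0.92, 1.05, 0.73 and 0.46. Prim2, Rfc1 and Cdc45 had differences of -0.92, -0.54 and -0.33.

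**Figure D4:**
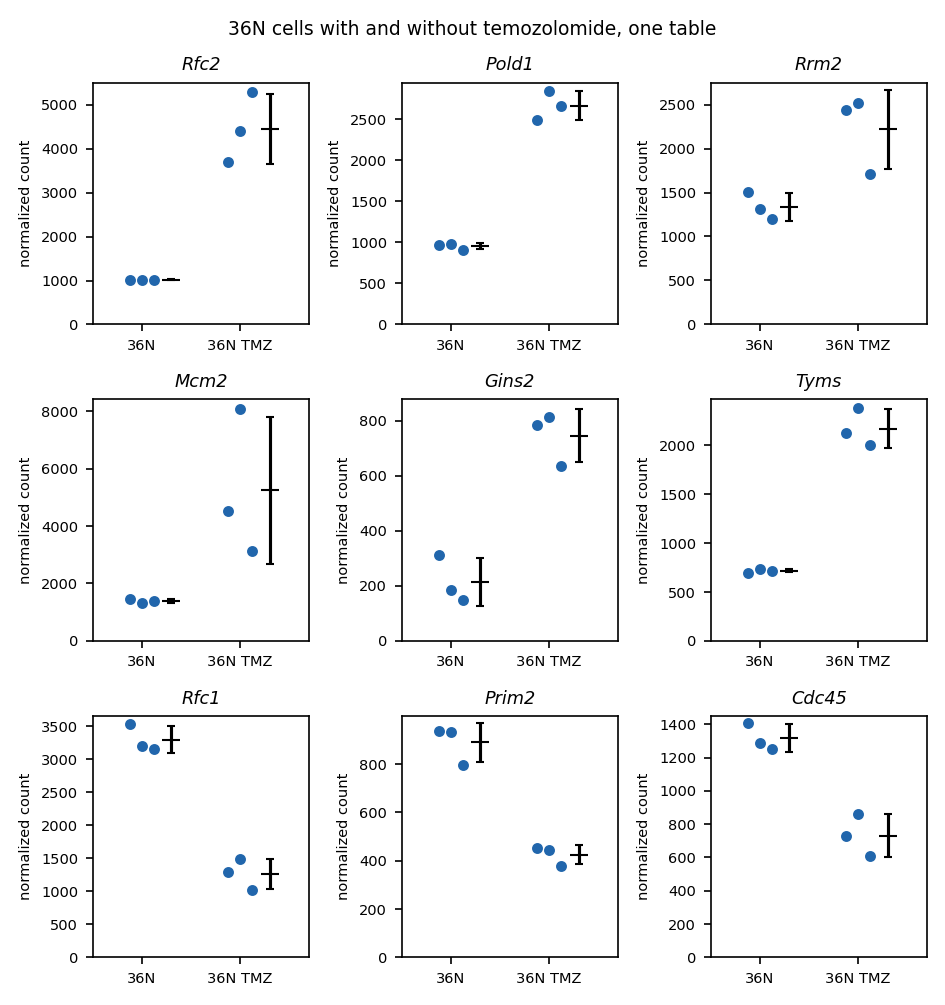
Normalized counts per library (points) with mean ± SD (bars) for 9 genes in 36N cells without and with TMZ, in the table that holds both. Rfc2, Pold1, Rrm2, Mcm2, Gins2 and Tyms lie higher with TMZ and Rfc1, Prim2 and Cdc45 lower, without overlap.

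For another set of genes the result rested on the table. Mcm2 stood at 1475, 1337 and 1381 untreated and 4529, 8069.8 and 3126 with TMZ (log2 fold change 1.80, SE 0.31, limma-trend adjusted p = 0.00125). The same untreated libraries held 2245, 2036 and 2093 in the untreated table, and the same TMZ libraries 2996, 5289.9 and 2026 in the TMZ table. The median difference of all genes between those 2 tables was 1.03 before centring. After centring, the difference of Mcm2 from those tables was -0.42. Gins2, a subunit of the GINS complex, stood at 314, 184 and 149 untreated and 786, 815 and 636 with TMZ (1.85, SE 0.28, limma-trend adjusted p = 0.00067), against -0.36 from the other tables. Tyms stood at 699, 732 and 719 untreated and 2131, 2385 and 1999 with TMZ (1.59, SE 0.11, limma-trend adjusted p = 1.6e-05), against 0.0047 from the other tables. Rfc5, a further loader subunit, stood at 637, 683 and 542 untreated and 1636, 1765 and 1239 with TMZ (1.31, SE 0.17, limma-trend adjusted p = 0.000298), against 0.12. These 4 genes were the ones that differed by over 1 log2 unit between versions. Ccne2 stood at 645, 728 and 980.2 untreated and 451, 607 and 315 with TMZ (-0.80, limma-trend adjusted p = 0.027), against 0.03 from the other tables. For the 6 subunits of the helicase ring the median went from 0.16 to -0.29, so no direction is given for the ring as a group.

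A further 7 genes passed with TMZ. Pola2 (a subunit of polymerase alpha), Mcm10, Ccne1, Rfc4 and Orc1 rose by 0.60 to 0.92 and Mcm7 and Uhrf1 fell by 0.66 and 0.82, with adjusted p from 0.0033 to 0.043, and the other tables gave the same sign for each. Ccne1 stood at 242, 217 and 304 untreated and 480.3, 556 and 332 with TMZ, while Ccne2 fell in this table. Among genes that did not pass, Mcm5 stood at 2969 ± 202 untreated and 3335 ± 884 with TMZ, Cdc6 at 650 ± 68.2 and 601 ± 158, and Cdt1 at 1689 ± 256 and 1154 ± 442 (0.13, -0.14 and -0.61, adjusted p = 0.56, 0.57 and 0.076). Pcna, Fen1, Pola1, E2f1, E2f2 and Slbp had differences of -0.06, 0.33, -0.11, 0.04, 0.28 and -0.08, with adjusted p from 0.084 to 0.79. TMZ library 5 was the highest of its group for 37 of the 43 genes and library 6 the lowest for 29.

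**Figure D5:**
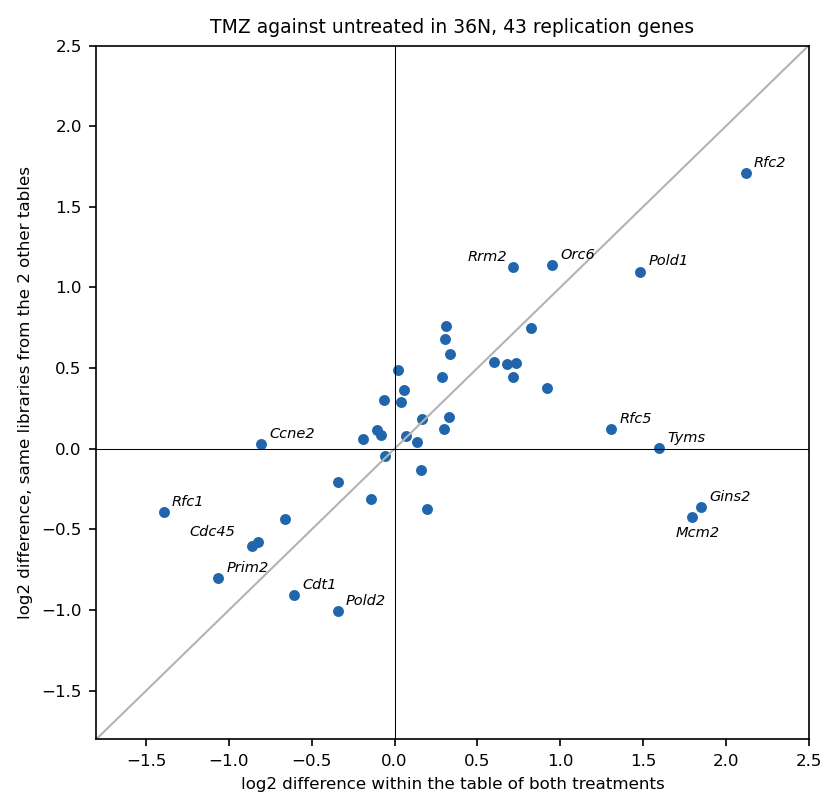
Difference between TMZ and untreated 36N libraries for the 43 genes on the log2 scale, from the table that holds both treatments (x) and from the same libraries in the 2 other tables (y, centred on the median of all genes), with the line of equality. Rfc2, Pold1, Orc6 and Rrm2 are high on both axes, while Mcm2, Gins2, Tyms and Rfc5 lie far to the right and near or below 0 on y.

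With TMZ, the cell markers in these samples differed far more than the replication genes. Markers of mast cells and basophils (8 of 8) and of megakaryocytes (5 of 5) were higher with TMZ, with sums of 85280 to 261900 against 102.4 to 608.8 and of 28900 to 56720 against 33.46 to 65.2. Fcer1a, Mcpt4 and Tpsb2 were listed at 0 in all 3 untreated libraries. The 7 B and plasma cell markers summed to 214.1 to 504.4 with TMZ and 8769 to 15080 without. The leukemia and progenitor markers summed to 18260 to 25710 and 16790 to 25240, but these similar sums do not mean similar levels of each marker. Of those 6, 1 rose: Kit stood at 577, 399.5 and 183 untreated and 9777, 14001 and 17111 with TMZ (5.25). The other 5 fell, with log2 fold changes of -0.75 (Cd34) to -7.03 (Flt3). T and NK cell markers did not move as a group: Gzmb and Nkg7 rose (log2 fold changes 8.81 and 3.71), and Cd3e, Cd3g and Klrb1c fell (-5.70, -3.81 and -3.60), with Cd3e and Gzma listed at 0 in all 3 TMZ libraries. The part of these markers in the results was not tested.

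Of the 86 other pathway genes, 23 rose and 23 fell with TMZ (26.7% each, against 36.3% and 33.5% of all genes, median 0.03). Wdhd1, a fork protein that binds polymerase alpha, rose from 309 ± 33.8 to 3744 ± 750 (log2 fold change 3.58, limma-trend adjusted p = 2.95e-06), Impdh2, an enzyme of guanine nucleotide synthesis, by 2.15 and Chtf18, of an alternative clamp loader, by 2.08 (adjusted p = 1.4e-05 and 2.2e-05). From the other tables these were 1.61, 0.47 and 1.64. Cdkn1a stood at 742, 719 and 820 untreated and 2497, 2847 and 2625 with TMZ. It rose by 1.80 (SE 0.11, limma-trend adjusted p = 9.21e-06), and its difference from the other tables was 1.94. Cdkn2c fell from 2216 ± 151 to 511 ± 9.32 (-2.11, limma-trend adjusted p = 4.3e-06). Of the D-type cyclins, Ccnd1 and Ccnd2 moved in opposite directions. Ccnd1 fell from 1090 ± 243 to 26.5 ± 9.80 (-5.34, limma-trend adjusted p = 5.8e-06, and -5.00 from the other tables). Ccnd2 stood at 268, 137 and 175 untreated and 2371, 6465 and 2130 with TMZ (4.10, limma-trend adjusted p = 0.000114, and 2.73 from the other tables). Ccnd3 stood at 2196, 2273 and 2972 untreated and 4984, 5705 and 5835 with TMZ (1.16), against -0.26 from the other tables. Cdk6 fell from 27286 ± 9186 to 2713 ± 1141 (-3.35, limma-trend adjusted p = 0.000129), and Gmnn did not pass (0.27, adjusted p = 0.14). Of the 24 G2/M genes, 15 rose and 2 fell (62.5% and 8.33%, against 36.3% and 33.5% of all genes). Their median was 0.62, and 0.30 from the other tables.

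Between 36N and 36S cells that had both received TMZ, no replication gene passed the test. The limma-trend test called 0 of the 43, at a background of 0% (0 of 14246 genes), and 0 of the 43 had an unadjusted p under 0.05 where 191 of all genes did (1.34%). None of the 43 had groups that did not overlap, where 4.76% of all genes did (2.9% higher and 1.86% lower). The median was -0.09 and 36 of the 43 were below 0, against 47% of all genes. The lowest p-values were those of E2f2 (0.23), Pole (-0.25) and Mcm4 (-0.22), which did not pass (limma-trend adjusted p = 1). E2f2 stood at 2045, 2488 and 2146 in 36S and 2623, 2471 and 2729 in 36N, with 1 of the 36N values inside the range of 36S. Pole, the catalytic subunit of polymerase epsilon, stood at 2727, 2897 and 3066 in 36S and 2058, 2952 and 2388 in 36N, and Mcm4 at 3164, 4058 and 3119 against 2890.4, 3201 and 2767, again with overlap. Orc1 was uneven: it stood at 89.3, 623 and 73.0 in 36S and at 245, 388 and 262 in 36N, and library 2 of 36S was far above the other 2 of its group (0.86, 95% confidence interval -0.88 to 2.61). The intervals of Rfc2 (-0.62 to 0.52), Pcna (-0.32 to 0.51) and Cdc6 (-0.74 to 0.34) show the size of difference that 3 libraries a group could still hide. Of the 86 other pathway genes 0 passed and 0 had an unadjusted p under 0.05. Btg1 and Cdkn2c were the lowest of them (0.44 and 0.33), and Cdkn1a, Cdk6, Ccnd2 and Gmnn had differences of 0.24, -0.50, 0.11 and -0.02 (limma-trend adjusted p = 1).

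Whether the difference between 36N and 36S changed with TMZ was tested as an interaction over the untreated and the TMZ tables. The limma-trend test called 0 of the 43 genes, where 0.333% of all genes passed (0.235% higher and 0.0974% lower), and 0 had an unadjusted p under 0.05 (861 of 12324 genes did, 6.99%). The interaction was above 0 for 32 of the 43 and below 0 for 11, where 46.5% of all genes were below 0. Its median was 0.12, against 0.03 over all genes. The lowest p-values were those of Lig1 (0.43, 95% confidence interval -0.03 to 0.89), Pcna (0.48, -0.07 to 1.03) and Gins2 (0.55, -0.22 to 1.31), none of which passed (adjusted p = 0.76, 0.78 and 0.88). Of the 85 other pathway genes 0 passed and 3 had an unadjusted p under 0.05, with Cdkn2c and Timeless lowest (-0.88 and -0.66, limma-trend adjusted p = 0.303 and 0.638). Cdkn1a, Ccnd2, Cdk6 and Gmnn had interactions of 0.36, -1.40, 0.27 and 0.32 (adjusted p = 0.715, 0.777, 0.956 and 0.92).

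The presence of the E2F letters in the promoter did not go with the size of the difference between KD and 36S. The median log2 fold change was -0.36 for the 16 genes with a match and -0.36 for the 19 without. With TMZ in 36N it was 0.05 for the genes with a match and 0.60 for those without, in the table that holds both treatments. The genes without a match include Mcm2, Tyms and Rfc5, whose differences from the other tables were -0.42, 0.0047 and 0.12. The medians from those tables were not taken, so how far this contrast depends on the table was not tested.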

How the data were processed

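RNA sequencing values came from 15 libraries in 4 deposited tables. What the authors deposited is 1 normalized count (a signal) for each gene and library. How it was scaled is not given in the sources used here, and the submitters' processing notes name Salmon, DESeq2 and mm10 without versions or roles. Poly(A) selection was used, per the labels. Whole reads could not be recovered: 28.7 to 69.2% of values under 10 came out whole within 0.1, so no counting error is given. The 36S values in the 2 untreated tables were identical (largest difference 0), which allowed KD and 36N to be joined. Tables normalized separately were not tested across, apart from the interaction, which compares differences taken within a table.

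The genes that reached 10 in 3 or more libraries numbered 13137 and 13109 for untreated 36N and KD with 36S, 14390 for 36N with and without TMZ, and 14246 for the TMZ libraries. These were tested as log2(value + 1) with limma-trend (limma 3.58.1, R 4.3.3), fitting only the groups of a comparison. Benjamini-Hochberg adjustment ran over all genes, at a threshold of 0.05. The scripts were tested on simulated data. Coordinates are from GENCODE M21 (mm10), with 43 of 43 symbols found, and promoter windows from RefSeq (GRCm38.p6). The 43 genes, the other lists and the tests were chosen with earlier results of these data known. By rule, 16 genes (such as Mcm2, Pcna and E2f2) are given with their values whatever these are, as are, in each comparison, up to 8 of the 43 past the threshold by lowest p (or the 3 lowest p where fewer than 3 passed), up to 6 other pathway genes past it (or the 2 lowest p), and Cdkn1a, Ccnd2, Cdk6 and Gmnn. Any further gene was chosen after seeing its values. The alternatives changed the pseudocount (0.5 or 5), the low-value filter (none, or 50) and the scaling (quantile, or equal totals). Others weighted the libraries, dropped the trend or made it robust, omitted single libraries, or blocked by library number. TMZ differences across tables were added after the data had been seen.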

Additional observations from a re-analysis of the deposited data

How the results depend on the processing

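Counts of the 43 genes past the threshold moved most for KD against 36S (6 as reported): 14 with equal totals, 23 with library weights (where 32.7% of all genes passed), 0 without the trend, and 0 to 6 with a library left out. For KD against 36N (2) the count was 1 with no filter, 0 without the trend, 7 with library weights (28.4% of all genes) and 0 to 3 with a library left out, and for 36N against 36S untreated (0) it was 12 with library weights (25.2% of all genes). For TMZ in 36N (20) it ranged from 15 to 25. Where no share of all genes stands beside a count, the count cannot be read as particular to the 43 genes. The interaction and the comparison of genotypes under TMZ gave 0 calls in every alternative run. Of the genes tried singly, Mcm2, Gins2 and Ccne2 changed sign for TMZ when taken across tables and centred (-0.42, -0.36 and 0.0282). No test was made there, and no gene changed sign under another alternative. Under all alternatives the median over the 43 genes moved by less than the SD of the reported fold changes over these genes. This margin can be wide: for TMZ in 36N the SD was 0.79 and the median 0.17. Staying within it therefore does not show that a median is stable. The median over the 43 genes ranged from 0.02 to 0.24 for TMZ in 36N, from -0.20 to 0.01 between genotypes under TMZ and from 0.001 to 0.23 for the interaction. Same-numbered untreated and TMZ libraries of 36N deviated together only weakly (correlations of 0.019, 0.037 and 0.086), and are treated here as unpaired. A replicate block gave 19 calls for TMZ in 36N and 0 for the interaction. Read depth is unknown, and 3 libraries a group limit what can be seen.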

Other observations

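Other promoter letters set the replication genes apart from the mitotic ones by description. The letters CCAAT, the core of the NF-Y site, were found on either strand in the windows of 21 of 35 replication genes (60%), 17 of 20 genes of G2/M and mitosis (85%) and 41.1% of 27025 genes. The letters TTTGAA, which form the cell cycle homology region of many mitotic promoters, were found for 6 of 35 replication genes (17.1%), 15 of 20 G2/M genes (75%) and 20.2% of all genes. The E2F letters were found for 1 of 20 G2/M genes (5%) and for 17 of 71 other genes of the replication and G1/S pathways (23.9%).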
